A study of Mus musculus with 43 samples.

Results

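Primary mouse colon fibroblasts were treated with 4 µM regorafenib or with vehicle, and the transcriptome of each culture was measured by RNA sequencing. The comparison holds 8 of the 43 libraries of the series: the 4 libraries treated with 4 µM regorafenib alone (R4) and the 4 vehicle libraries (Ve, DMSO), matched to the deposited table by library name. Each group holds 1 library from each of the lines M3, M3(2), M1(2) and M11, so that every treated library has a vehicle library of its own line. The lines were grown from wild-type C57B/6 colon tissue that remained after crypt isolation, in DMEM/F12 with fetal bovine serum, and were exposed for 7 days from replating. The other fibroblast libraries received 10 µM regorafenib (R10, 3 libraries, none of line M11), 1 µM autogramin-2 (A1, 4 libraries) or 4 µM regorafenib with 1 µM autogramin-2 (R4A1, 4 libraries), and the rest of the series is colon organoids. The mice of M3 and M3(2) were males aged 2 months, and the age and sex of those of M1(2) and M11 are not given in the sources used here. Each line was raised from 1 mouse, from digested tissue passed through a strainer, and the methods name no sort for fibroblasts, so other stromal cells could be carried along.

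Regorafenib is a kinase inhibitor that acts on receptors of blood vessel growth (VEGF receptors and TIE2), on receptors of stromal growth factors (PDGF and FGF receptors), on KIT and RET, and on the RAF kinases. Fibroblasts carry PDGF receptors, which are switched on by PDGF dimers and pass the signal through RAS, RAF, MEK and ERK to immediate early genes such as the Egr and Fos families. In the colon, fibroblasts lay down and remodel the collagen matrix and secrete the Wnt, BMP and R-spondin factors, with their antagonists, that surround the crypt. Autogramin-2 inhibits autophagy by acting on the cholesterol transfer protein GRAMD1A.

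Values are CP20M, gene counts scaled to a library total of 20000000 and not divided by transcript length, so levels are compared between libraries and not between genes. The spacing of the low values put the depth of the 8 libraries at 8366409 to 12825923 counted reads, and the cut-off for testing, 200 CP20M in at least 2 of the 8 libraries, at 83.7 to 128 reads. Mitochondrial transcripts held 0.73 to 1.17% of the counts in Ve and 0.952 to 1.45% in R4. The summed level of 10 fibroblast markers was 191141 to 259961 CP20M in Ve and 171607 to 235954 in R4, and was higher in R4 in 1 of 4 lines. Its largest members were Col1a1, Vim and Col1a2. Of these markers, 2 were called higher (Dcn and Thy1) and 3 lower (Pdgfra, Col1a2 and Col3a1). Of 8 epithelial markers, Epcam, Cdh1, Krt8 and Lgals4 were at 20 CP20M or less in all 8 libraries. Krt19 was at 240 to 1292 CP20M in Ve and 285 to 772 in R4, while Krt20 reached 213, Krt18 56 and Vil1 40. Cells of other types were present at lower levels, and their markers are given beside the genes they move with. In bulk libraries, fewer cells of a type and less RNA per cell cannot be told apart.

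Regorafenib changed a broad set of genes, with more rises than falls. Of 10688 genes tested, 699 (6.54%) differed between R4 and Ve, 445 higher (4.16%) and 254 lower (2.38%), by limma with the line as a block, at an adjusted p below 0.05 and a fold of at least 1.5. Of the 699, 307 had a fold of 2 or more, and 680 moved the same way in all 4 lines, as did 38% of all genes tested. The call itself favours genes that move 1 way in every line. The 4 R4 values did not overlap the 4 Ve values for 179 of the 699 genes, and for 6.37% of all genes tested. The differences between lines were large, and the count was 42 without the line in the fit. The counts called in each list below are to be read beside the shares over all genes tested, 4.16% higher and 2.38% lower.

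**Figure D1:**
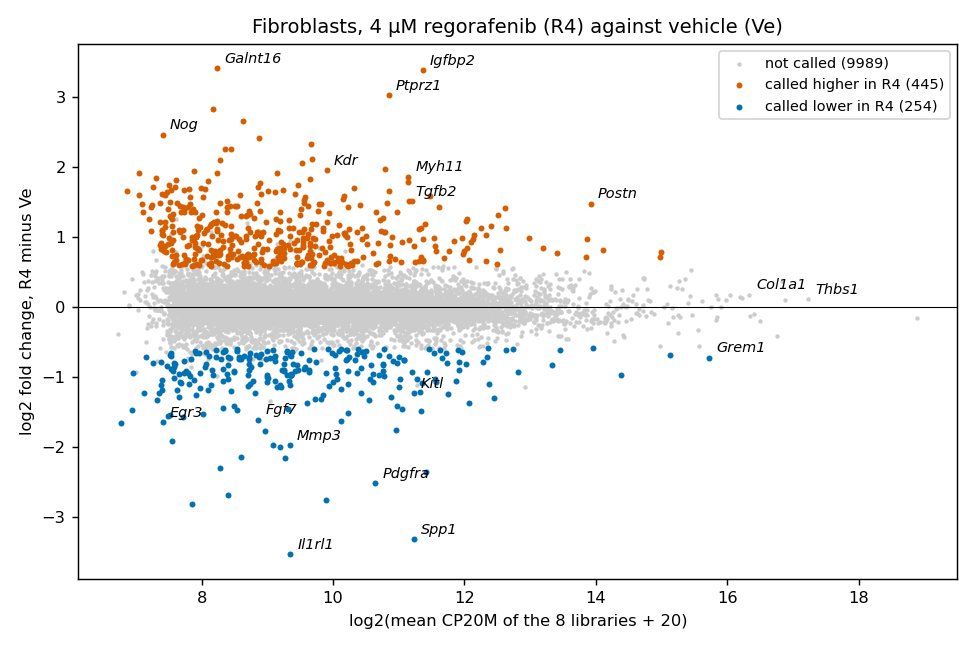
Each point is 1 of the 10688 genes tested, with log2 of its mean CP20M over the 8 libraries plus 20 on the x axis and its log2 fold change, R4 minus Ve, on the y axis. The 445 genes called higher are orange and the 254 called lower are blue, and the most abundant labelled gene, Thbs1, lies near 0 while Il1rl1, Spp1 and Pdgfra lie lowest among the labelled genes.

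Among the kinases that regorafenib inhibits, the receptor mRNAs went in opposite directions. Of 19 listed kinases, 16 were tested, of which 3 were higher (Kdr, Flt1 and Tek) and 1 was lower (Pdgfra), with a list median of 0.15 on the log2 scale against -0.0041 for all genes. Kit and Ret were below the cut-off. Pdgfra, the PDGF receptor alpha that also serves as a general fibroblast marker (ENSMUSG00000029231, GRCm38 chromosome 5, 75152292 to 75198215, plus strand), read 4877, 2606, 1645 and 1499 CP20M in the Ve libraries of M3, M3(2), M1(2) and M11, and 1156, 383, 196 and 280 in the R4 libraries. Every R4 value lay under every Ve value, and M3 was highest in both groups. Pdgfra fell by 2.51 ± 0.14 on the log2 scale (SE, n = 4 lines, limma adjusted p = 1.0e-04), a 5.70-fold lower level. The sister receptor Pdgfrb read 5285 to 9948 CP20M in Ve and 4317 to 7297 in R4, with a log2 change of -0.27 ± 0.10 that did not pass the test (limma adjusted p = 0.10). Fgfr1, the main FGF receptor of mesenchymal cells, had a log2 change of -0.48 ± 0.08 and Ddr2, a collagen receptor, of -0.34 ± 0.06, both under the fold limit (limma adjusted p = 0.0055 and 0.0098). The kinases Braf, Abl1, Epha2, Fgfr2, Frk, Mapk11 and Flt4 did not pass the test and had log2 changes between -0.05 and 0.45. Csf1r, the macrophage CSF1 receptor, was at -0.51 ± 0.12. Without M3, Flt4, the VEGF receptor of lymphatic vessels, was called higher (log2 0.73, limma adjusted p = 0.0019), and without M3(2), Csf1r was called lower (log2 -0.61, limma adjusted p = 0.025).

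The ligands of these receptors also split. Of 22 listed ligands, 18 were tested, of which 3 were higher (Pdgfb, Pdgfd and Angpt2) and 3 were lower (Fgf7, Kitl and Vegfc). Fgf7, the keratinocyte growth factor that fibroblasts supply to epithelium, read 981, 476, 824 and 433 CP20M in Ve and 311, 138, 251 and 136 in R4. The groups did not overlap, and Fgf7 was 3.04-fold lower (log2 -1.61 ± 0.08, limma adjusted p = 8.4e-05). Kitl, which encodes stem cell factor, read 1664, 4870, 4606 and 2417 CP20M in Ve and 828, 1324, 1915 and 1385 in R4. It was lower in each of the 4 lines, by 2.34-fold (log2 -1.23 ± 0.15, limma adjusted p = 0.0022), although the R4 library of M1(2) lay above the Ve library of M3. Pdgfb, a ligand of both PDGF receptors, read 177, 518, 625 and 994 CP20M in Ve and 454, 1215, 1135 and 1527 in R4, a log2 rise of 0.98 ± 0.12 (limma adjusted p = 0.0018).

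**Figure D2:**
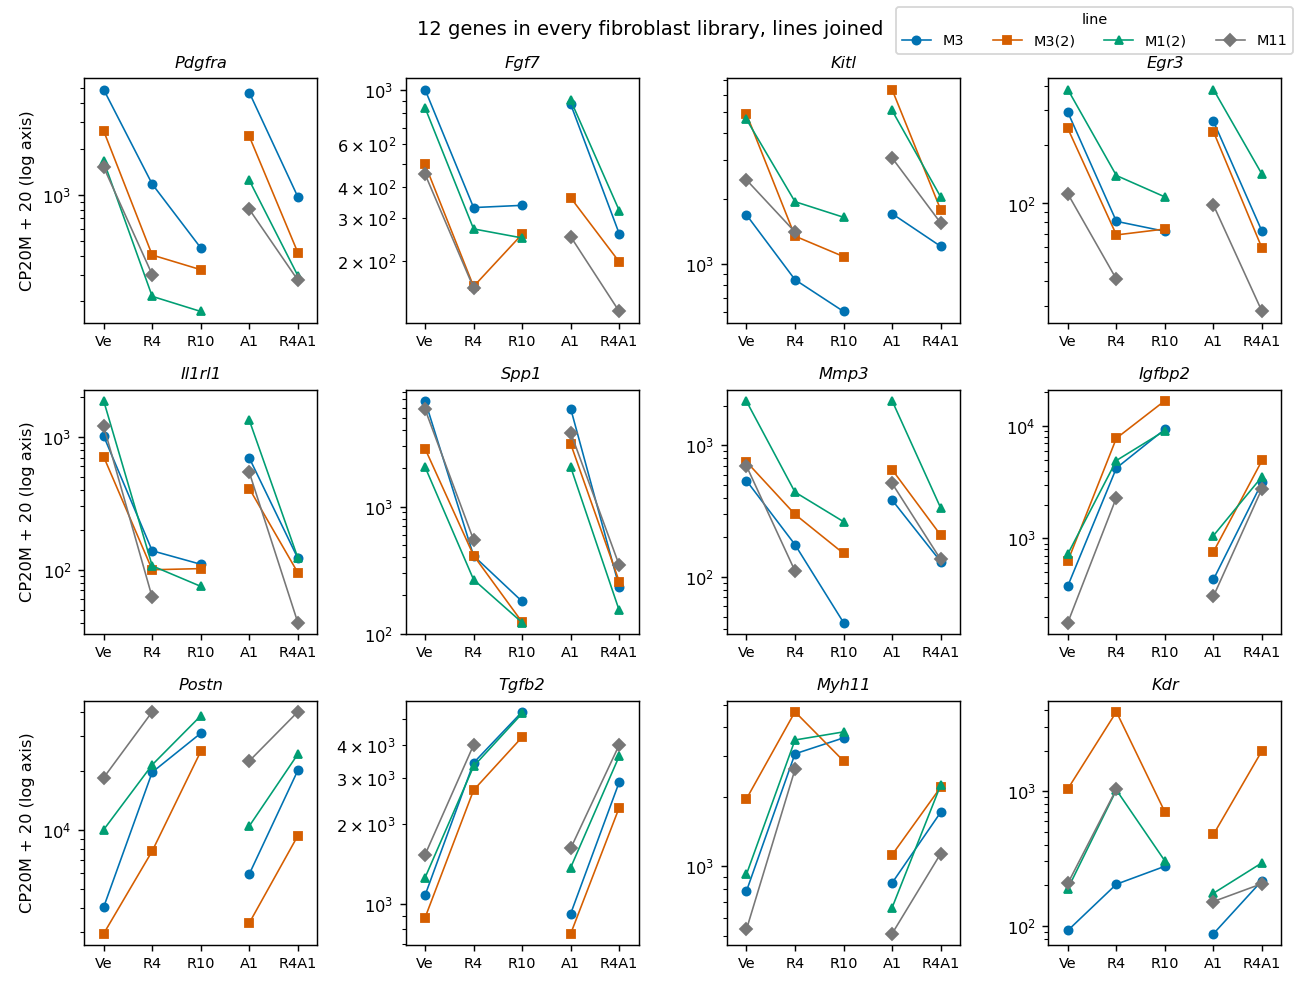
Each panel shows 1 gene in the 19 fibroblast libraries, with the treatment on the x axis, CP20M plus 20 on a log y axis and 1 colour and symbol for each line. Lines join libraries of the same fibroblast line, Ve to R4 to R10 and A1 to R4A1, and Pdgfra, Fgf7, Kitl, Egr3, Il1rl1, Spp1 and Mmp3 are lower while Igfbp2, Postn, Tgfb2, Myh11 and Kdr are higher in R4 than in Ve in each of the 4 lines.

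The rises of Kdr, Flt1 and Tek stood beside a rise of endothelial marker genes, and Kdr and Tek are themselves among those markers. All 7 endothelial markers were called higher (Pecam1, Cdh5, Emcn, Tie1, Cldn5, Kdr and Tek). Kdr, which encodes VEGF receptor 2, read 72, 1019, 168 and 186 CP20M in Ve and 183, 3866, 999 and 1014 in R4, in the line order M3, M3(2), M1(2) and M11. Line M3(2) stood far above the other lines in both groups, and the groups overlapped with it and without it. Kdr was 3.87-fold higher (log2 1.95 ± 0.20, limma adjusted p = 9.6e-04), and higher in all 4 lines. The summed endothelial markers read 1295, 12418, 2356 and 3294 CP20M in Ve and 2085, 33328, 8047 and 9341 in R4. Their ratio of R4 to Ve was 1.60, 2.68, 3.40 and 2.82 in the 4 lines, so the sum was higher in each. Of all genes tested, 124 had a Ve level in M3(2) at least 2 times that of each other line, and 103 of them were called higher and none lower. Those 103 were 23.1% of the genes called higher, and 342 called rises remained outside them. The part of endothelial cells in the changes of Kdr, Flt1, Tek, Angpt2, Hey1 and Pkhd1l1 was not tested. Tek was higher in 3 of the 4 lines and at 32 CP20M in both libraries of M3, and it lost its call without M3(2), M1(2) or M11 (limma adjusted p between 0.0948 and 0.169).

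**Figure D3:**
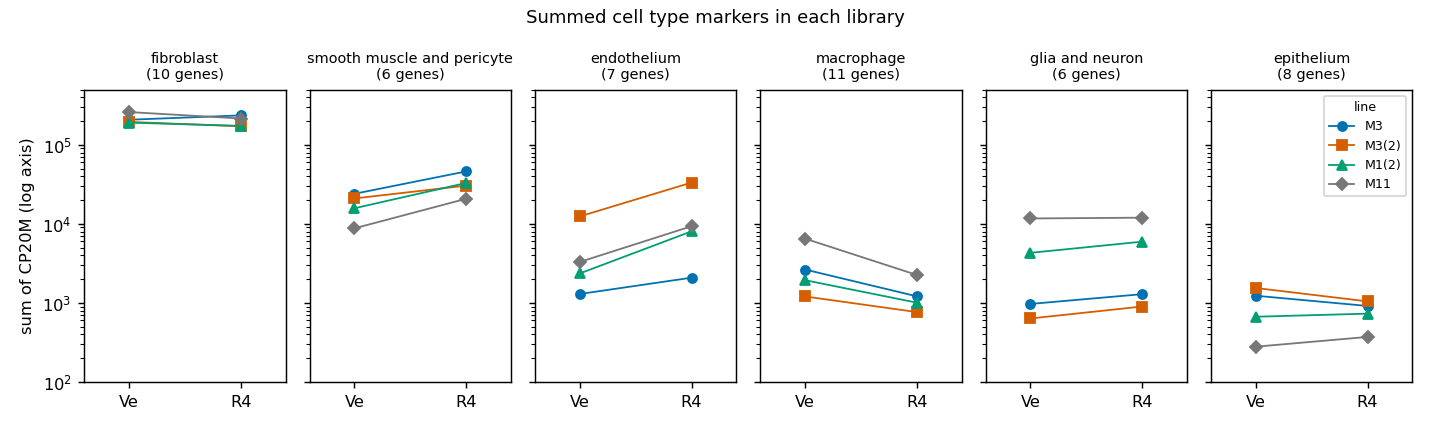
Each panel shows the summed CP20M of 1 list of cell type markers on a log y axis, in the Ve and R4 library of each line, joined by line. The endothelial sum is higher in R4 in 4 of 4 lines and highest in M3(2), the macrophage sum is lower in 4 of 4 lines, and the fibroblast sum lies between 171607 and 259961 in all 8 libraries.

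Most of the listed genes that ERK signalling switches on had a log2 change below 0 in R4, and a minority of them were called. Of 24 feedback regulators and target genes, all tested, 7 were called lower and none higher, against 2.38% lower and 4.16% higher over all genes tested. Of the 24, 23 had a log2 change below 0, with a list median of -0.51 against -0.0041 for all genes. Those called were the transcription factors Egr1, Egr2, Egr3, Etv1 and Fosl1, the ERK phosphatase gene Dusp5 and the RAS pathway inhibitor gene Spred1. Egr3 read 273, 222, 363 and 92 CP20M in Ve and 61, 49, 119 and 21 in R4, and each line was lower. The fall of Egr3 was 3.13-fold (log2 -1.64 ± 0.16, limma adjusted p = 7.8e-04). The log2 change was -1.19 ± 0.15 for Egr2, -1.16 ± 0.15 for Etv1 and -0.97 ± 0.11 for Dusp5. The classic feedback genes did not all follow: Dusp6 was at -0.05 ± 0.18 and Spry1 at 0.19 ± 0.10, neither of which passed the test. Outside the list, the MAP kinase phosphatase gene Dusp2, named after its value was seen, was called higher (log2 1.68, limma adjusted p = 0.0055). The number of list members called lower was between 7 and 10 when 1 line was left out and 0 without the line in the fit. With a cut-off of 1000 CP20M, 12 members were tested and 2 were called lower.

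Egr2 and Dusp5 are shown with the 150 bases before an annotated start because they were the 2 called members of this list, of 4 with a promoter sequence at hand, that hold a CArG box, the site bound by serum response factor. The sequences are from RefSeq on GRCm38.p6, 5′ to 3′ on the plus strand, with the CArG boxes in capitals, at chr10:67537719-67537868 for Egr2 and chr19:53528995-53529144 for Dusp5.
Egr2: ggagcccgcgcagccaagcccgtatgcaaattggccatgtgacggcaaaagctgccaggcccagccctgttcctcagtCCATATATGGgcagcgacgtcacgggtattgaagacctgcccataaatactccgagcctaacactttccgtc
Dusp5: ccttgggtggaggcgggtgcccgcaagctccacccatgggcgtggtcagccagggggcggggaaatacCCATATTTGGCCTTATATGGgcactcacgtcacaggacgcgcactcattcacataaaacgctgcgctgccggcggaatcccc
The box of Egr2 begins 72 bases before the start, and the adjoining boxes of Dusp5 begin 82 and 72 bases before it. A CArG box was found on either strand in 1.63% of all RefSeq mouse promoters of 300 bases. Among all genes tested with a RefSeq promoter, 1.70% held the box, against 3.96% of those called higher and 3.85% of those called lower. Of 16 contractile and actin genes with a promoter, 4 held it (Myl9, Cnn2, Vcl and Srf), and 0 of these were called. The match is a description of the letters and not of binding.

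Of 21 matrix proteases and inhibitors, 20 were tested, and 6 were called lower (the proteases Mmp3, Mmp10, Mmp12, Mmp13 and Plau and the inhibitor Timp1) and none higher. The list median was -0.10, and 8 members had a log2 change above 0. Mmp3, the stromelysin-1 gene, read 519, 730, 2145 and 677 CP20M in Ve and 156, 279, 421 and 91 in R4. Each R4 value was lower than every Ve value, and M1(2) was highest in both groups. Mmp3 was 3.92-fold lower (log2 -1.97 ± 0.20, limma adjusted p = 0.0010). Mmp10, stromelysin-2, read 684, 1415, 3705 and 929 CP20M in Ve and 342, 401, 1046 and 224 in R4, a log2 change of -1.62 ± 0.15, with overlap only through M1(2). Mmp13, collagenase-3, was lower by a log2 change of -1.44 ± 0.17. Plau, the urokinase that activates plasminogen, read 5257, 4898, 6227 and 2828 CP20M in Ve and 2460, 2094, 2402 and 1142 in R4 without overlap, and was 2.37-fold lower (limma adjusted p = 8.4e-05). Timp1, an inhibitor of these enzymes, had a log2 change of -1.03 ± 0.06. Mmp2, a gelatinase, and Mmp14, a membrane-bound protease, were at 0.00 and 0.17.

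The 4 called Mmp genes lie near each other on chromosome 9 and are shown because each holds an AP-1 site, TGANTCA, in its promoter. Of 13 tested list members with a RefSeq promoter, 5 held the motif in at least 1 promoter, 4 of which were called. By the same count, 8.97% of all mouse genes with a RefSeq promoter of 300 bases held it, searched on both strands. The 150 bases before the start are given 5′ to 3′ on the plus strand of GRCm38.p6, with the motif in capitals, at chr9:7445672-7445821 (Mmp3), chr9:7502192-7502341 (Mmp10), chr9:7347224-7347373 (Mmp12) and chr9:7272364-7272513 (Mmp13).
Mmp3: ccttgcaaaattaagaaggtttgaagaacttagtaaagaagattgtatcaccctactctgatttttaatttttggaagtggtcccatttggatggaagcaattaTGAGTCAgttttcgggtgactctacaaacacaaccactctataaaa
Mmp10: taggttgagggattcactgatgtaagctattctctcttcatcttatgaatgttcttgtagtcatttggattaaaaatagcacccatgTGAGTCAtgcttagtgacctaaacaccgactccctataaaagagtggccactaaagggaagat
Mmp12: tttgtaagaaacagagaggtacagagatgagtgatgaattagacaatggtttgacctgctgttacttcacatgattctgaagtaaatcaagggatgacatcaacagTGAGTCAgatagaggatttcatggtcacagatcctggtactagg
Mmp13: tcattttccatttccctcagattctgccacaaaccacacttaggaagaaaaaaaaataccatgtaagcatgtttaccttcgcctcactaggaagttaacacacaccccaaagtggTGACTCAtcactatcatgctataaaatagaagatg
The motif begins 46, 63, 44 and 35 bases before the start in Mmp3, Mmp10, Mmp12 and Mmp13. The fifth holder of the motif, Plaur, had a log2 change of 0.00. Among all genes tested with a RefSeq promoter, 6.15% held the motif, against 9.57% of those called higher and 12.6% of those called lower. These shares are given as descriptions, and binding of AP-1 was not measured. Mmp12 is made mainly by macrophages, and its values of 94 to 565 CP20M in Ve and 65 to 194 in R4 stood beside summed macrophage markers of 1206 to 6503 and 765 to 2255 CP20M, highest in M11 for both.

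The structural matrix changed member by member. Of 13 fibrillar and associated collagens, all tested, 2 were higher (Col12a1 and Col14a1) and 5 were lower (Col1a2, Col3a1, Col6a1, Col6a2 and Col11a1). The count of 5 fell to 1 without M3(2) or without M1(2) and to 2 without M11, and Col6a2 lost its call in each of these 3 cases (limma adjusted p between 0.0603 and 0.186). Col14a1, which coats collagen fibrils, read 125, 75, 524 and 1165 CP20M in Ve and 462, 213, 1115 and 3142 in R4, a log2 rise of 1.38 ± 0.11 (limma adjusted p = 3.8e-04). It was higher in all 4 lines, which differed from each other by more than the treatment changed them. Col1a1 and Col1a2, the chains of collagen I, had log2 changes of 0.18 ± 0.10 and -0.68 ± 0.12. Postn, the matricellular protein periostin, read 4002, 2923, 9984 and 18417 CP20M in Ve and 19650, 7760, 21444 and 40019 in R4, and was 2.79-fold higher (log2 1.48 ± 0.18, limma adjusted p = 0.0019). Of 22 matricellular and matrix glycoprotein genes tested, 5 were higher (Postn, Dcn, Ctgf, Wisp2 and Nov) and 3 were lower (Spp1, Vcan and Fbln1). Nov, a CCN family protein, lost its call without M3, M1(2) or M11 (limma adjusted p between 0.0538 and 0.0568). Adamts2, which trims procollagen, rose by 1.58 ± 0.21. The laminin chains Lama2 and Lama5 rose by 1.08 ± 0.19 and 0.85 ± 0.08, the 2 called of 15 basement membrane genes tested. Without M11, 4 genes of that list were called higher and 1 lower. Over all genes tested, 4.16% were called higher and 2.38% lower, and 2 calls in a list of 15 give no result about the list.

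Spp1, which encodes the secreted matrix protein osteopontin (ENSMUSG00000029304, GRCm38 chromosome 5, 104435118 to 104441050, plus strand), had the second lowest fold change of all called genes. It read 6821, 2845, 2036 and 5836 CP20M in Ve and 390, 392, 246 and 527 in R4. The groups were far apart, and the 4 treated libraries were close to each other. Spp1 was 9.9-fold lower (log2 -3.31 ± 0.19, limma adjusted p = 1.2e-04). The exons of Gm42793, itself lower by a log2 change of -2.81, overlap those of Spp1 on the same strand, so the reads of both are uncertain.

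Some contractile genes of smooth muscle and myofibroblasts were higher. Of 20 contractile and actin genes, 19 were tested, 5 of which were higher (Synpo2, Myh11, Cnn1, Lmod1 and Actg2) and none lower, and 18 had a log2 change above 0. Myh11, the smooth muscle myosin heavy chain, read 761, 1937, 903 and 513 CP20M in Ve and 3047, 4642, 3500 and 2606 in R4. The groups did not overlap, and Myh11 was 3.64-fold higher (log2 1.86 ± 0.15, limma adjusted p = 3.2e-04). Synpo2, an actin bundling protein of the Z-disc, read 703, 1020, 700 and 381 CP20M in Ve and 3946, 3328, 2286 and 1688 in R4, a 3.94-fold rise. Acta2, the alpha smooth muscle actin gene, had a log2 change of 0.54 ± 0.08, under the fold limit. The summed smooth muscle and pericyte markers, of which Myh11, Actg2, Cnn1 and Notch3 were called higher, were 8775 to 24013 CP20M in Ve and 20797 to 46153 in R4, while Des was at 22 to 55 and 84 to 167 CP20M and Rgs5 at 5 to 17 and 14 to 38. Whether more smooth muscle cells or more of these transcripts per cell lay behind the sum cannot be told apart.

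TGF-beta and BMP pathway genes changed in both directions, with more rises. Of 19 genes, 18 were tested, 7 of which were higher (Tgfb2, Tgfb3, Ltbp2, Smad6, Id1, Id2 and Id3) and 3 lower (Tgfbr3, Ltbp1 and Bmper). Tgfb2, a TGF-beta ligand, read 1055, 864, 1234 and 1512 CP20M in Ve and 3398, 2673, 3295 and 3974 in R4. All R4 values were above all Ve values, and Tgfb2 was 2.86-fold higher (log2 1.52 ± 0.07, limma adjusted p = 8.4e-05). Ltbp2, a latent TGF-beta binding protein of microfibrils, rose by 1.66 ± 0.16. Smad6, an inhibitor of BMP signalling that BMP induces, rose by 1.48 ± 0.10, and the BMP target Id2 by 1.23 ± 0.21. Id2 was highest in M3(2), at 618 CP20M in Ve and 1852 in R4, the line with the highest endothelial marker sum. Nog, a secreted BMP antagonist, read 17, 69, 26 and 11 CP20M in Ve and 200, 459, 312 and 105 in R4, low levels that were 5.52-fold higher.

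Of 22 niche factors of the Wnt, BMP and R-spondin families, only 9 were tested, with Sfrp1 higher and Grem1 lower, and 2 were called higher without M3 or without M11. Grem1, the BMP antagonist gremlin-1 of crypt base fibroblasts, read 83341, 69889, 85301 and 27443 CP20M in Ve and 50385, 48834, 54026 and 14016 in R4. It was lower in every line, by 1.64-fold (log2 -0.72 ± 0.08, limma adjusted p = 0.0011), and M11 was lowest in both groups. Sfrp1, a secreted Wnt antagonist, read 830, 908, 3609 and 4668 CP20M in Ve and 2545, 1897, 8394 and 10511 in R4, a 2.39-fold rise (log2 1.26 ± 0.09, limma adjusted p = 2.4e-04). Rspo3, an R-spondin, had a log2 change of 0.37 ± 0.10, and Bmp4 of 0.85 ± 0.26 (limma adjusted p = 0.071).

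Among the genes with the lowest fold changes, 2 encode cytokine receptor chains. Il1rl1, the receptor of interleukin 33, read 997, 691, 1858 and 1187 CP20M in Ve and 119, 80, 87 and 42 in R4. It was the gene with the lowest fold change of all called genes, 11.5-fold lower (log2 -3.53 ± 0.26, limma adjusted p = 2.4e-04). Il18rap, a chain of the interleukin 18 receptor, read 725, 512, 694 and 317 CP20M in Ve and 86, 85, 96 and 24 in R4, a log2 change of -2.68 ± 0.13. The other genes among the 12 lowest were Gm42793, Prl2c2, Pdgfra, Prl2c3, Hsd3b6, Prkg2, Vat1l, Cd53, Spp1 and Mmp3, with log2 changes from -3.31 to -1.97. Prl2c2 and Prl2c3 are near-identical prolactin family genes, and their separate values are uncertain. Cd53 is a leukocyte surface gene, and the macrophage marker Lyz2 was also lower, by a log2 change of -1.23 ± 0.12.

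Igfbp2, Ptprz1 and Galnt16 had the highest fold changes of all called genes. Igfbp2, a binding protein of insulin-like growth factors, read 359, 610, 708 and 159 CP20M in Ve and 4198, 7738, 4899 and 2287 in R4. Every line rose, without overlap of the groups, by 10.5-fold (log2 3.39 ± 0.15, limma adjusted p = 8.4e-05). Igfbp5 and Igfbp6 of the same family were lower, by log2 changes of -1.06 ± 0.13 and -0.88 ± 0.13. Ptprz1, a receptor tyrosine phosphatase that binds pleiotrophin, read 445, 540, 382 and 184 CP20M in Ve and 4824, 3547, 2218 and 2438 in R4, an 8.17-fold rise. Galnt16, a glycosyltransferase of mucin-type O-glycans, read 15, 19, 40 and 51 CP20M in Ve and 607, 638, 260 and 625 in R4. The remaining genes among the 12 highest were Slc1a6, Myom1, Nog, Creb5, Pkhd1l1, Bex1, Hmcn1, Pcsk6 and Hey1, with log2 changes from 2.10 to 2.82. Of these 9, Nog, Pkhd1l1, Bex1, Hmcn1, Pcsk6 and Hey1 were at their highest in M3(2) in both groups. Pkhd1l1 and Bex1 lost the call without M1(2) (limma adjusted p = 0.057 and 0.0509), and Hey1 lost it without M3(2) (limma adjusted p = 0.0741).

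**Figure D4:**
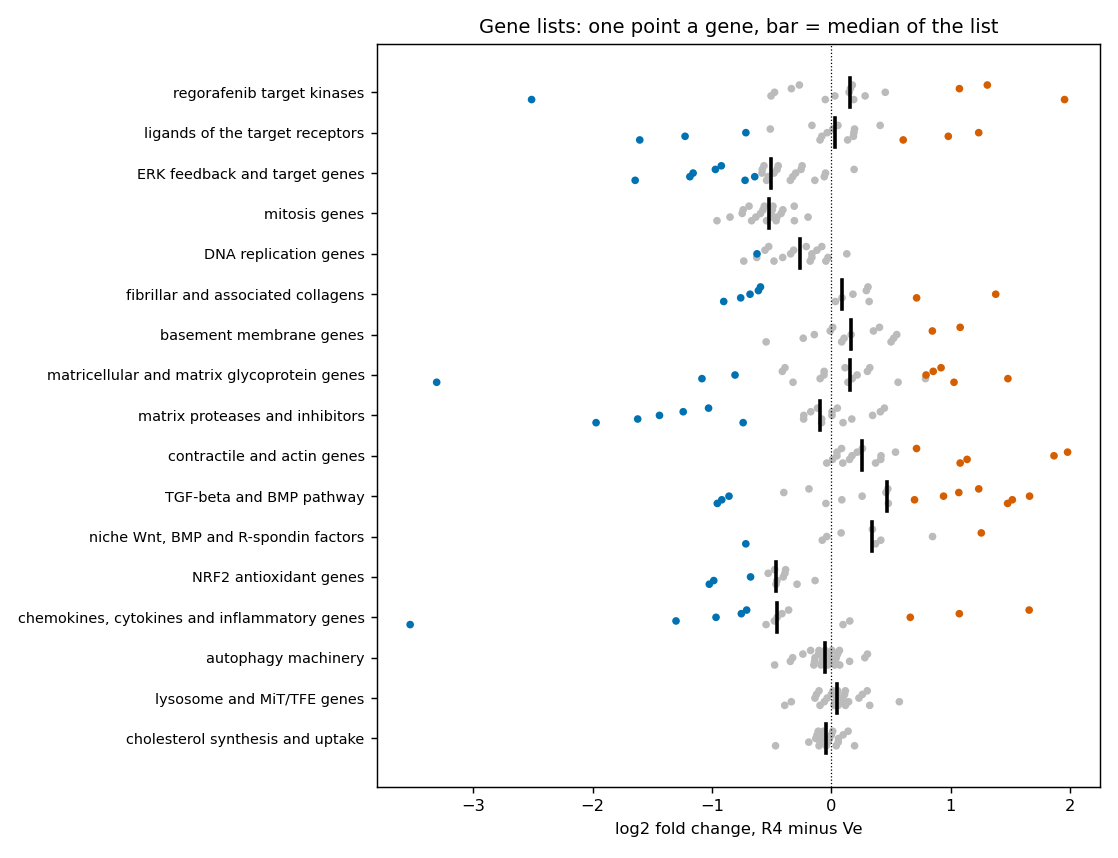
Each point is 1 tested gene of the list named on the y axis, placed by its log2 fold change, R4 minus Ve, with genes called higher in orange, called lower in blue and the others in grey, and a black bar at the list median. The ERK target, mitosis and NRF2 lists lie mostly left of the dotted line at the median of all genes, the contractile list mostly right, and the autophagy, lysosome and cholesterol lists close around it.

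Genes of inflammation were called in both directions, and genes of oxidant defence were called only lower. Of 27 chemokine, cytokine and inflammatory genes, 15 were tested, with 5 lower (Il1rl1, Ptgs1, Ptgs2, Cxcl12 and Ccl8) and 3 higher (Lcn2, Tnfrsf11b and Nfkbia). The summed macrophage markers were lower in all 4 lines, with ratios of R4 to Ve of 0.462, 0.640, 0.524 and 0.349 in M3, M3(2), M1(2) and M11, and their part in the inflammatory falls was not tested. Ptgs1, cyclooxygenase 1 of prostaglandin synthesis, read 10763, 9279, 8290 and 2850 CP20M in Ve and 4964, 3855, 3418 and 954 in R4, a log2 change of -1.30 ± 0.08. Tnfrsf11b, the decoy receptor osteoprotegerin, read 758, 864, 1075 and 617 CP20M in Ve and 1962, 1779, 2140 and 1194 in R4, a rise of 1.07 ± 0.08 without overlap. Lcn2 was at 0 to 88 CP20M in Ve and 12 to 299 in R4, highest in M3(2), and lost its call without M3(2) or M1(2) (limma adjusted p = 0.0814 and 0.0651). Of 13 NRF2 antioxidant genes, 12 were tested and 12 had a log2 change below 0, with 3 called lower (Srxn1, Nqo1 and Gclc) and a list median of -0.46. Srxn1, sulfiredoxin, read 3978, 4204, 4227 and 3543 CP20M in Ve and 1906, 1576, 2199 and 2175 in R4, 2.03-fold lower. Nqo1, a quinone reductase, lost its call without M3(2) or M1(2) (limma adjusted p = 0.0518 and 0.114). Of 9 xenobiotic response genes tested, 5 were lower (Cyp1b1, Abcc4, Tiparp, Ugdh and Abcc1), and Cyp1b1 lost the call when M3, M1(2) or M11 was left out. Without M1(2) the count was 2, and Tiparp was among the calls lost (limma adjusted p = 0.068). Twist1, Twist2, Prrx1 and Cdh11, mesenchymal regulators and a cadherin, were lower by log2 changes of -0.94 to -0.79 among 11 tested, and Twist2 lost its call without M1(2) (limma adjusted p = 0.0631).

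Cell cycle genes were lower in some lines and not in others. None of the 22 mitosis genes tested was called, although all 22 had a log2 change below 0 and the list median was -0.53. By line, that median was -1.63 in M3, -0.64 in M1(2), -0.06 in M3(2) and 0.01 in M11. Mki67, the proliferation marker, read 2310, 1681, 1328 and 1435 CP20M in Ve and 535, 2164, 790 and 1734 in R4, so that 2 lines were lower and 2 higher (log2 -0.54 ± 0.36, limma adjusted p = 0.36). Without M3, the list median was -0.18. The count of mitosis genes called lower was 2 without M11, 3 with TMM scaling and 4 with all 19 fibroblast libraries in 1 fit. Of 18 DNA replication genes tested, Ccne1, the cyclin of S phase entry, was the 1 called, with a log2 change of -0.62 ± 0.09. The share called over all genes tested was 6.54%. In the DNA replication list, 4 were called lower without M11 and 3 with TMM scaling or with all 19 libraries. Of 16 p53 target genes, Perp and Fas were higher, and Cdkn1a was at 0.19. Over all genes tested, 4.16% were called higher, and 2 calls in a list of 16 give no result about the list.

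Autophagy, lysosome and cholesterol genes changed little at the mRNA level. None of 29 autophagy genes, 27 lysosome genes or 21 cholesterol synthesis and uptake genes was called, with list medians of -0.05, 0.05 and -0.04. The largest log2 change of the autophagy list was that of the cargo receptor Sqstm1, at -0.48 ± 0.07 (limma adjusted p = 0.0038), which is also an NRF2 target. Gramd1a, the protein target of autogramin-2, read 825, 939, 780 and 1067 CP20M in Ve and 907, 1403, 949 and 1252 in R4 (log2 0.30 ± 0.08, limma adjusted p = 0.051). Thbs1, the matricellular protein thrombospondin-1, read 93994 to 197602 CP20M in Ve and 99530 to 221045 in R4 (log2 0.11 ± 0.06, limma adjusted p = 0.21). Of 24 integrated stress response genes tested, Gdf15 and Vldlr were higher and Slc7a11 and Atf3 lower, Atf3 not without M3(2) (log2 -0.50). In the remaining lists, Apoe was higher and Scd1 lower among 8 cholesterol efflux genes, Fabp4 higher and Angptl4 lower among 13 PPAR targets, Slfn5 higher among 17 interferon-stimulated genes and Ctgf higher among 11 YAP targets. Slfn5 went against most of its list, in which 13 genes had a log2 change below 0 and 4 above (median -0.29). By line, that median was -0.46 in M3, -0.43 in M3(2), -0.33 in M1(2) and 0.29 in M11. Of the YAP targets, 10 were above 0 and 1 below (median 0.32). Of all genes tested, 6.54% were called, and 1 call in a list of this size gives no result about the list. Slfn5 lost its call without M3(2) or M1(2) (limma adjusted p = 0.114 and 0.0688) and Apoe without M1(2) (limma adjusted p = 0.0521), while Scd1 fell under the fold limit without M3 or M3(2) (log2 -0.55 and -0.58). Without M11, 3 interferon-stimulated genes were called lower. None of 15 hypoxia genes, 7 glypicans and syndecans, 7 mitochondrially encoded mRNAs or 3 MondoA targets was called, apart from 1 mitochondrial mRNA without M1(2).

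The same dose was measured again in the 4 lines on a background of autogramin-2, in libraries that the comparison of R4 with Ve did not use. Between R4A1 and A1, 523 of the 10688 genes were called (4.89%), 241 higher and 282 lower. Of these, 378 were also called in R4 against Ve, all in the same direction, which is 54.1% of the R4 calls and 72.3% of the R4A1 calls. Spp1 changed by -3.87 and Il1rl1 by -2.95 on the log2 scale with autogramin-2, Pdgfra by -2.11, Ptprz1 by 3.21 and Igfbp2 by 2.62. The test of the difference between the responses found 0 genes at an adjusted p below 0.05 by limma, with 722 at an unadjusted p below 0.05 and a smallest adjusted p of 0.434. That does not show that the responses were alike: Angpt2, Lcn2 and Fabp4 had log2 changes of 1.23, 1.66 and 1.02 without autogramin-2 and of -0.02, -0.02 and -0.45 with it. These 3 genes were named after their values were seen, and Angpt2 and Lcn2 were highest in M3(2) in both R4 and Ve. The summed endothelial markers stood at 1065, 8108, 2352 and 2425 CP20M in A1 and 2489, 20226, 2259 and 2294 in R4A1 in the order M3, M3(2), M1(2) and M11, and their part in these values was not tested.

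**Figure D5:**
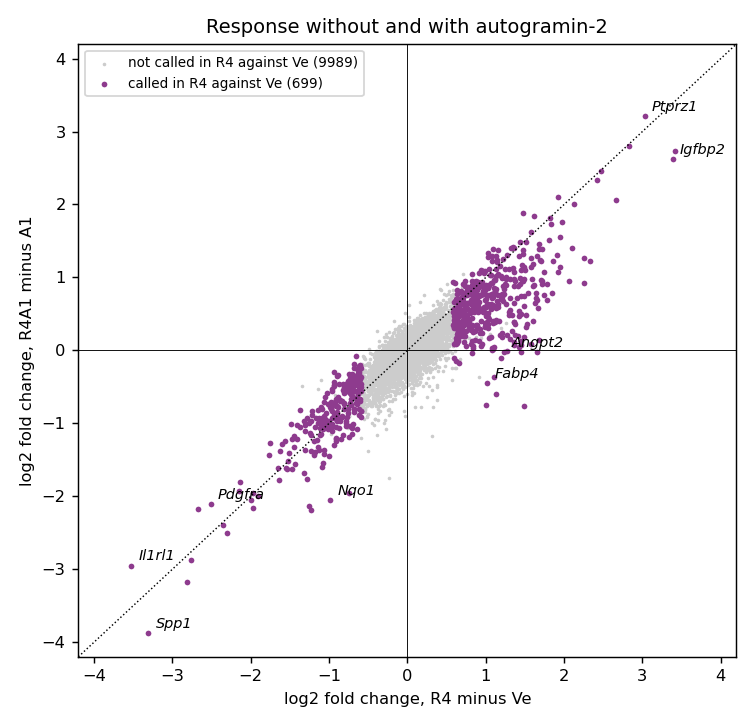
Each point is 1 gene tested, with its log2 fold change R4 minus Ve on the x axis and R4A1 minus A1 on the y axis, and the dotted line marks equal changes. The 699 genes called in R4 against Ve are purple, and of these 685 have the same sign on both axes, while Angpt2 and Fabp4 lie at or below 0 on the y axis.

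At 10 µM, measured in M3, M3(2) and M1(2), 50 genes were higher and 104 lower than at 4 µM in the same lines, together 1.44% of those tested. This comparison shares its R4 libraries with that of R4 and Ve, and the values are given side by side. Spp1 read 390, 392 and 246 CP20M at 4 µM in M3, M3(2) and M1(2), and was lower again at 10 µM, by a log2 change of -1.35 (limma adjusted p = 0.026). Igfbp2 and Ptprz1 were higher at 10 than at 4 µM, by 1.04 and 1.24, and Galnt16 by 2.02 (limma adjusted p = 0.0029). Pdgfra had a log2 difference of -0.68 and Fgf7 of 0.21, neither of which passed the test. Angpt2, higher than vehicle at 4 µM, was lower at 10 than at 4 µM by a log2 change of -2.23 (limma adjusted p = 0.034), beside summed endothelial markers of 1717, 7431 and 2059 CP20M in R10. The count depended on the lines in the fit: limma called 301 genes without M3, 251 without M3(2) and 0 without M1(2). In the fit without M1(2), 1201 genes had an unadjusted p below 0.05. With so few lines, a loss of power and a dependence on M1(2) cannot be told apart.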

How the data were processed

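RNA was sequenced from paired-end libraries. Per the labels and the study's methods, the authors trimmed reads with Trimmomatic 0.36, aligned them to GRCm38 with STAR 2.5.3a, counted genes with HTSeq 0.9.1, and deposited a scaled signal, CP20M, in which each library's counts sum to about 20000000, rounded up to whole numbers. The strand setting of the counting is not given in the sources used here, so overlapping genes on opposite strands may share reads.

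Genes with at least 200 CP20M in 2 of the 8 libraries entered linear models on log2(CP20M + 20) that held the line as a block, fitted by limma (version 3.58.1, R version 4.3.3, trended empirical Bayes), and p-values were adjusted by Benjamini-Hochberg over all genes tested. Fold changes are on this scale and understate those of low genes. A gene was called when it changed by 0.585 or more on the log2 scale, up or down, at an adjusted p below 0.05. The line pairs the samples because libraries of a line come from the same mouse, and deviations of same-line libraries correlated at 0.515 to 0.908.

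Reads per library were estimated from the step between low values, which in the 8 libraries fitted 100% of values up to 400 CP20M after rounding up. No 2 replicates differed by as little as sampling noise. Gene coordinates are from GENCODE M21, in which 38 of the 120 named genes have exons that overlap another gene. The fit was run on simulated data in which all genes had the same dispersion and the treatment acted alike in every line. The real lines did not all respond alike, so that run does not measure how the fit behaves on them. The text names the 12 largest rises and falls among called genes that moved one way in 4 lines, up to 4 called members of each list (the 2 most abundant where none was called), all tested target kinases and genes the study names, the cell type markers, and list members that decide a contrast. Further list members, such as Col1a1, Mmp2, Mmp14, Dusp6 and Bmp4, were named after their values were seen. Some genes that the rule names are not reported here. The members, lists, markers and motifs were chosen with earlier results of these data known. Alternatives were other pseudocounts, filters, scaling, no block, all 19 fibroblast libraries in 1 fit, each line left out and, chosen after seeing the data, voom weights on whole reads.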

Additional observations from a re-analysis of the deposited data

Results flagged for a closer look

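In 4 of 120 named genes, the log2 difference between R4 and Ve of 1 line lay apart from those of the other 3 lines, by the ratio of its gap to the range of the 4 values. Chance alone gives such a flag in about 1 of 20 sets of 4 values, so 4 of 120 is no more than chance gives. Egr2, an ERK target, was lower by -1.54 in M3(2) against -1.11 to -1.04 in the others. Txnip, an inhibitor of thioredoxin, was at -0.286 in M3(2) against -0.426 to -0.411. The lysosomal protease gene Ctsd was at 0.332 in M3(2) against 0.227 to 0.242. Ptk7, a Wnt co-receptor, was at 0.428 in M3 against -0.00705 to 0.0472. Of these 4 genes, Egr2 was the 1 called.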

How the results depend on the processing

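The 699 calls of R4 against Ve became 562 with a pseudocount of 100, 968 without a filter, 277 with a filter of 1000 CP20M, 717 with TMM scaling and 715 with all 19 fibroblast libraries in 1 fit, and 527 to 758 when 1 line was left out, of which 493 to 636 were among the 699. Without the line as a block, the calls were 42 for R4 against Ve, 20 for R4A1 against A1 and 7 for R10 against R4. R4A1 against A1 gave 223 calls with a filter of 1000 CP20M and 395 to 626 when 1 line was left out. R10 against R4, with 50 genes higher and 104 lower (32.5% higher), gave 78 with a pseudocount of 100 (41% higher), 0 without a filter (2932 genes at an unadjusted p below 0.05), 53 with a filter of 1000 CP20M, 268 with TMM scaling and 0 to 301 when 1 line was left out (301 without M3, of which 10.3% higher, 251 without M3(2) and 0 without M1(2)). The difference with and without autogramin-2 gave 0 to 1 genes when 1 line was left out, the 1 being Mmrn1 without M3 (adjusted p = 0.0207). Voom weights on the whole reads, chosen after seeing the data, gave 768 calls for R4, 645 for R4A1 against A1, 389 for R10 against R4 (20.8% higher) and 1 for the difference (Ctss, adjusted p = 0.0152). Of 1395 values of named genes, 1287 kept direction and call, 104 lost the call (70 without the block), 2 gained it, and 2 changed sign. With 1 line left out, the log2 change ran from -0.75 to 0.027 for Top2a (the latter without M3) and from -0.024 (without M3(2)) to 0.053 for Fgfr2. The causes were not tested. The negative binomial tests planned on whole reads were not run. Genes under about 84 reads were not tested, and 4 lines leave small changes undetected.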

Other observations

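Beyond the lists, several genes of signalling between neighbouring cells changed in all 4 lines; they were chosen after their values were seen, and no gene set was tested. Jag1, a ligand of the Notch receptors, read 1026, 1491, 1726 and 2105 CP20M in Ve and 2555, 3682, 3273 and 4172 in R4, in the order M3, M3(2), M1(2) and M11. Notch3, the Notch receptor of mural cells, read 715, 740, 884 and 1188 CP20M in Ve and 2632, 2118, 1676 and 2764 in R4. The groups did not overlap for either gene, and the log2 changes were 1.12 ± 0.08 for Jag1 and 1.36 ± 0.14 for Notch3 (limma adjusted p = 2.4e-04 and 9.6e-04). Of the Notch targets, Hey1 was higher by 2.10 ± 0.41 (limma adjusted p = 0.013, a call lost without M3(2)), and Hes1 had a log2 change of 0.28 ± 0.13 that did not pass the test (limma adjusted p = 0.19). Itga8, an integrin chain that binds matrix proteins with an RGD motif, read 242, 426, 394 and 285 CP20M in Ve and 1309, 1381, 1142 and 1089 in R4, and was 3.57-fold higher.

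Among falls outside the lists, Errfi1, a feedback inhibitor of the EGF receptor, read 2176, 2023, 2099 and 790 CP20M in Ve and 723, 644, 624 and 350 in R4, and was 2.84-fold lower. Has2, a hyaluronan synthase, read 1915, 969, 909 and 931 CP20M in Ve and 840, 348, 394 and 322 in R4, 2.48-fold lower. Neither gene overlapped between the groups. Ptn, which encodes pleiotrophin, a ligand of the receptor encoded by Ptprz1, read 384 to 1342 CP20M in Ve and 38 to 464 in R4 and was lower in each line, a log2 change of -1.97 ± 0.21 (limma adjusted p = 0.0011), while Ptprz1 itself was 8.17-fold higher.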
